A study of Homo sapiens with 2 samples.

Results

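Desmosomes are the spot junctions that rivet neighbouring epithelial cells together and tie their keratin filaments into 1 network across the tissue. The 10 genes described here encode their parts: the cadherins DSG2, DSG3, DSC2 and DSC3, the armadillo proteins JUP, PKP1, PKP2 and PKP3, the plakin DSP and the membrane protein PERP. They were taken by symbol and matched to Ensembl identifiers, and all 10 have a row among the 31845 genes of the deposited table. Transcripts were measured by RNA sequencing in 1 library of parental Capan-1 cells and 1 library of an olaparib-resistant line derived from them. Capan-1, an established line, came from a pancreatic adenocarcinoma and carries a mutant BRCA2 gene, although the cell type field of the labels reads breast cancer. Olaparib blocks PARP enzymes, which cells without homologous recombination need for DNA repair. The resistant cells had been selected with olaparib raised in steps between 15 nM and 128 uM, and both lines grew in RPMI medium with serum. The sources used here do not state whether the resistant line is a single clone or whether olaparib was present at harvest.

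In a desmosome, desmogleins and desmocollins reach across the gap between cells. Their tails bind plakoglobin (JUP) and the plakophilins, and these hold desmoplakin (DSP), which grips the keratin filaments. DSG2 and DSC2 are the widespread forms, found in simple epithelia such as pancreatic ducts, while DSG3, DSC3 and PKP1 are best known from stratified epithelia such as skin. Loss of desmosomal adhesion has been studied as a step in the spread of carcinoma cells, and plakoglobin and the plakophilins also have roles outside the junction.

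Both libraries were of like depth, at 34572931 parental counts over 28834 genes and 34507480 resistant counts over 27940 genes. The parental line's name heads 1 pair of columns. The other pair has a heading that the labels do not spell out, and was assigned to the resistant line because no other library was left, so each direction here depends on that assignment. As each group is 1 library without a replicate, nothing was tested, and a difference describes these 2 libraries only. Ratios are of counts scaled between libraries by TMM (trimmed mean of M values), log2 ratios add a prior of 1 count, and the 95% intervals in brackets cover counting error only. Among the 15102 genes with at least 50 counts in the higher library, 6.00% exceeded the parental level by 2-fold or more in the resistant library and 8.95% were below it by as much, and the median log2 ratio was 0.06.

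Of the 10 desmosome genes, 9 reached 50 counts, each of them in both libraries, and PKP1 did not. DSG3, DSC3 and DSC2 were higher by 2-fold or more in the resistant library, none of the 9 was lower by as much, and the other 6 lay within 2-fold. In all, 7 of the 9 had a log2 ratio above 0 and JUP and PKP3 had one below 0, with a median of 0.41 and a mean of 0.66. Of all 15102 genes at that minimum, 7726 were above 0 and 7376 below it. Summed over the 10 genes, there were 36974 parental and 49240 resistant counts, a 1.34-fold higher level [1.32 to 1.36]. In such bulk samples, more cells of a type and more RNA per cell cannot be told apart.

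**Figure D1:**
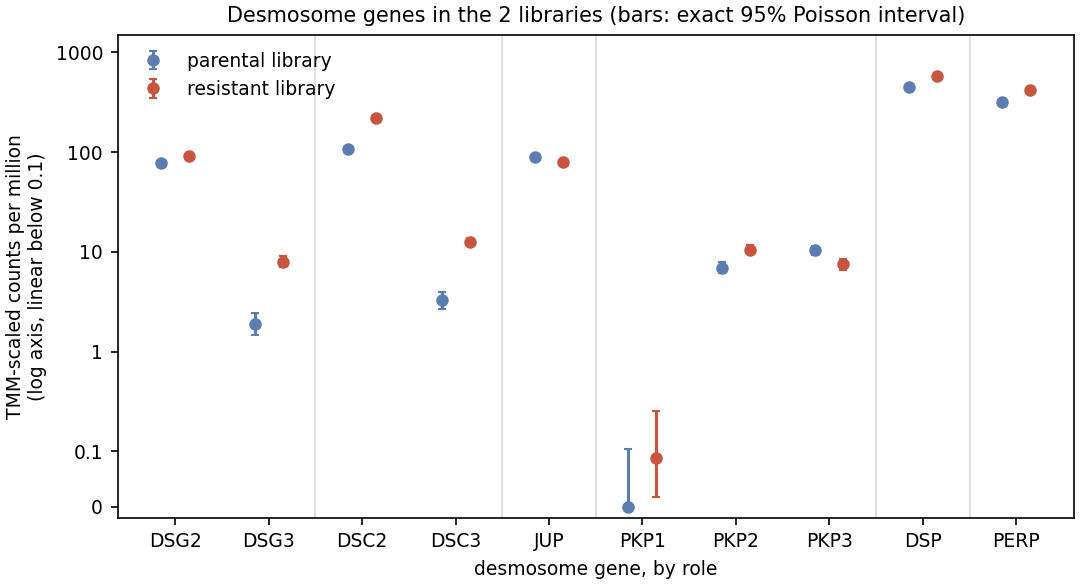
Scaled counts as CPM, counts relative to library size (log axis, linear below 0.1) of the 10 desmosome genes in the parental library (blue) and the resistant library (red), 1 library each, ordered by role; bars are exact 95% Poisson intervals for counting error. DSG3, DSC3 and DSC2 show the widest gaps, DSP and PERP are the most counted in both libraries, and PKP1 is at 0 and 3 counts.

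The deposited file gives each gene a count and an FPKM value (a count per transcript length and library depth), and the length behind the FPKM limits what either says. That length, worked out from count and FPKM, was within 1% of a single annotated GENCODE transcript for 7708 of 8524 well-counted genes that have several, and for 52.7% of those it was less than 50% of the gene's longest transcript. DSG2 was divided by 1081 bases although its longest transcript has 5831, and JUP by 1029 of 3497. PKP2 was divided by the length of a 566-base transcript that retains an intron (longest 4302) and PKP3 by that of a 590-base one (longest 2809). The length for PKP1 was 630 bases, that of a non-coding transcript of a gene whose longest one has 5447. DSP (9796 bases), DSG3 and DSC3 were divided by their longest transcripts, while the lengths for DSC2 (5124 bases) and PERP (2009) matched no single transcript. No source used here says whether the counts of DSG2, JUP and the plakophilins cover the whole gene or that transcript alone, so their ratios may describe 1 transcript.

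The desmocollins differed most as a class. DSC2, the desmocollin of simple epithelia, had 3735 counts in the parental and 7632 in the resistant library, with deposited FPKM values of 8.21 and 17.5. Its level was 2.06-fold higher in the resistant library [1.98 to 2.14], with a log2 ratio of 1.04 that exceeded 94.4% of genes. DSC2 sat at the 2-fold mark, and when libraries were scaled by the median of ratios its log2 ratio was 0.98. DSC3, the desmocollin of the basal layers of stratified epithelia, had 113 and 430 counts and FPKM values of 0.182 and 0.724. It was 3.83-fold higher [3.11 to 4.76], a log2 ratio of 1.93 above that of 98.2% of genes. Even so, DSC3 had far fewer counts than DSC2 in both libraries. Together the desmocollins had 3848 and 8062 counts, a ratio of 2.11 [2.03 to 2.19].

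Among the desmogleins, the rare form had the wider ratio and the common one a narrow one. DSG3, known as the target of autoantibodies in pemphigus vulgaris, had 66 counts in the parental and 275 in the resistant library, with FPKM values of 0.135 and 0.585. The ratio was 4.19 [3.20 to 5.57] and its log2 of 2.05 exceeded 98.4% of genes, the widest difference among the 9. DSG2, the desmoglein found wherever desmosomes form, had 2695 and 3148 counts and FPKM values of 28.1 and 34.2. It was 1.18-fold higher [1.12 to 1.24], with a log2 ratio of 0.23 that exceeded 58.9% of genes. The desmogleins together had 2761 and 3423 counts, a ratio of 1.25 [1.19 to 1.31]. The cadherins as a whole went from 6609 counts to 11485, a ratio of 1.75 [1.70 to 1.80], and DSC2 supplied most of that gap.

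The make-up of each cadherin class can be read within a library, apart from scaling. By count, DSG3 was 2.39% of the desmogleins in the parental library [exact binomial 1.85 to 3.03] and 8.03% in the resistant library [7.15 to 8.99]. DSC3 was 2.94% of the desmocollins [2.43 to 3.52] and then 5.33% [4.85 to 5.85]. Neither pair of intervals overlapped, so beyond counting error both rare forms took a larger share of the counts in the resistant library. By deposited FPKM the DSG3 share was 0.478% and 1.68%, and the DSC3 share 2.17% and 3.97%. Dividing counts by each gene's longest transcript gave DSG3 shares of 2.52% and 8.44%, and DSC3 shares of 5.07% and 9.05%. For DSC2 that transcript has 12325 bases, against an FPKM length of 5124, which raises the DSC3 shares on this scale. The DSG2 counts may be those of 1 short transcript, so the DSG3 shares may not stand for whole genes. The widespread forms DSG2 and DSC2 kept over 90% of their classes on every one of these scales.

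**Figure D2:**
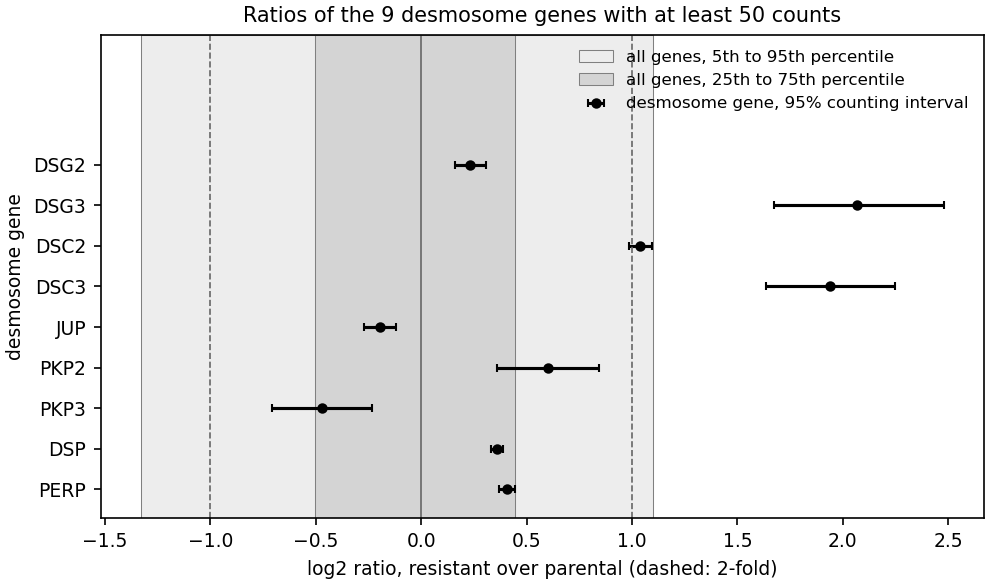
Log2 ratio of resistant over parental scaled counts for the 9 desmosome genes with at least 50 counts, with 95% counting intervals; shading gives the 5th to 95th and 25th to 75th percentiles of all 15102 genes and dashed lines mark 2-fold. DSG3 and DSC3 lie beyond the 95th percentile (1.10), DSC2 lies just inside it, and JUP and PKP3 are the genes left of 0.

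All 4 cadherin genes lie in 1 cluster on chromosome 18, in the order DSC3, DSC2, DSC1, DSG1, DSG4, DSG3, DSG2 in the GENCODE gene order. Because DSC2, DSC3 and DSG3 were higher together while DSG2 differed little, the 250 bases before their annotated starts are shown (RefSeq, GRCh38.p14, 5′ to 3′ on the gene's own strand). Capitals mark matches to the E-box CAGGTG or its reverse complement, the site bound by the SNAI and ZEB repressors of epithelial genes.
DSC2, outer start, chr18:31102422-31102671, minus strand: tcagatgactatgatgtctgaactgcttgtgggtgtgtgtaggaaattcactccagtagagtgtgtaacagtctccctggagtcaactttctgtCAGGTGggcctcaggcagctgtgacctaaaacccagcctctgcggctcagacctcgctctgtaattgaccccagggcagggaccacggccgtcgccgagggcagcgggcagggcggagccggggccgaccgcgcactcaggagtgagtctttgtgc
DSC2, inner start, chr18:31101261-31101510, minus strand: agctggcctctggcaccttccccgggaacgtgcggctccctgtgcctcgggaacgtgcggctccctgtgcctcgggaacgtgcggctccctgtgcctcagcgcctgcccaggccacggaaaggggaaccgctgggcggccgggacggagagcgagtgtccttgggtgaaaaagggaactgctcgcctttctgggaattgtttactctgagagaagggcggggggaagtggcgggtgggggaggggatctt
DSC3, chr18:31042743-31042992, minus strand: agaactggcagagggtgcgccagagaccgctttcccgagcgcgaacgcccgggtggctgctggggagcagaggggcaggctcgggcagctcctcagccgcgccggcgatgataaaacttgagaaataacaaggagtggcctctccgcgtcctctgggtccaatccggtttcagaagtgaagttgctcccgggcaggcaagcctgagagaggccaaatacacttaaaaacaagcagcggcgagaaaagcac
DSG3, chr18:31447491-31447740, plus strand: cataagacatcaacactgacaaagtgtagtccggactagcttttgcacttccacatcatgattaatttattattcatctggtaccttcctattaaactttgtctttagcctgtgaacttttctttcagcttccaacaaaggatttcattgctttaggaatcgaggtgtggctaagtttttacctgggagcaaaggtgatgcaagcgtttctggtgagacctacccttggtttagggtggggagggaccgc
DSG2, chr18:31497927-31498176, plus strand: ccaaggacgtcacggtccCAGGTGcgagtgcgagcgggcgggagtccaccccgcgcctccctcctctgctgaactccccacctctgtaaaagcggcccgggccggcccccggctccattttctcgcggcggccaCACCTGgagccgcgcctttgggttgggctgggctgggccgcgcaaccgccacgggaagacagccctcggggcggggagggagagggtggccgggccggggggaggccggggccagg
The inner start of DSC2 and the windows of DSC3 and DSG3 held no E-box match. The outer DSC2 window held 1, beginning 156 bases before the start, and the DSG2 window held matches 232 and 116 bases before the start. An E-box match was present in 17.5% of the 35116 windows of this length in the RefSeq table, so a match is common. The DSG3 window had a GC content of 42.8%, against 75.2% for DSG2, 60.4% for DSC3, 66.8% for the inner DSC2 start, 59.6% for the outer one and a median of 58.0% over all windows. The DSG3 window is thus the AT-rich one of the set. No GENCODE transcript was matched to the RefSeq starts of DSG3 and DSC2, so these windows may not be the promoters in use.

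The same search covered 10 windows of the 8 desmosome genes in the RefSeq table. DSP had E-box matches 178 and 85 bases before its start, and 1 of the JUP starts had matches 54 and 43 bases before it. The windows of PKP1, PERP and the other JUP start had none. Searches on both strands for the CDX motif TTTATNG (in 8.93% of all windows) and the grainyhead motif AACCGGTT (in 0.117%) found no match in the 10 windows. No match overlapped another. These are letter matches, not measured sites.

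The remaining cadherins of the cluster were hardly counted. DSC1, a desmocollin of the upper epidermis, had 1 count in the parental and 9 in the resistant library, a ratio of 9.06 with an interval of 1.26 to 397. DSG1, the main desmoglein of the upper epidermis, had 3 counts and 0. DSG4, a desmoglein of the hair follicle, had 36 and 31 counts. The forms typical of cornifying epithelium thus stayed below 50 counts in both libraries. Antisense genes overlap the cluster, and without knowing the strand used in counting, their reads cannot be told apart from the cadherins'. DSCAS, opposite DSC2, had 5 counts and 0, and DSG2-AS1 had 7 and 16, far below the counts of the genes they face.

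Next to DSC3 in the order of measured coding genes lies CDH2, which encodes N-cadherin, a cadherin of neural and mesenchymal cells. CDH2 had 559 counts in the parental and 2866 in the resistant library, a 5.16-fold higher level [4.71 to 5.66]. Beyond CDH2, KCTD1 had a log2 ratio of -0.30, TAF4B one of 0.05, SS18 0.20 and IMPACT 0.23. Unlike CDH2, these 4 genes lay within 2-fold. Distances between genes were not weighed, and a difference shared by CDH2 and the cluster was not tested. Past DSG2 at the other end, B4GALT6 was at -0.80, TRAPPC8 at -0.23, RNF125 at -0.98, RNF138 at 0.33 and GAREM1 at -0.85. DTNA, further on, had 74 counts and 0, at least 24.5-fold lower against a floor of 3 counts. Over the 10 measured coding genes on each side, the median log2 ratio was 0.21 before the cluster and -0.62 after it. Of these 20 genes, CDH2, CABYR and ANKRD29 were higher by 2-fold or more, DTNA and ZNF396 were lower by as much, and the overall median was -0.09. These medians are the same with DTNA placed at its bound.

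**Figure D3:**
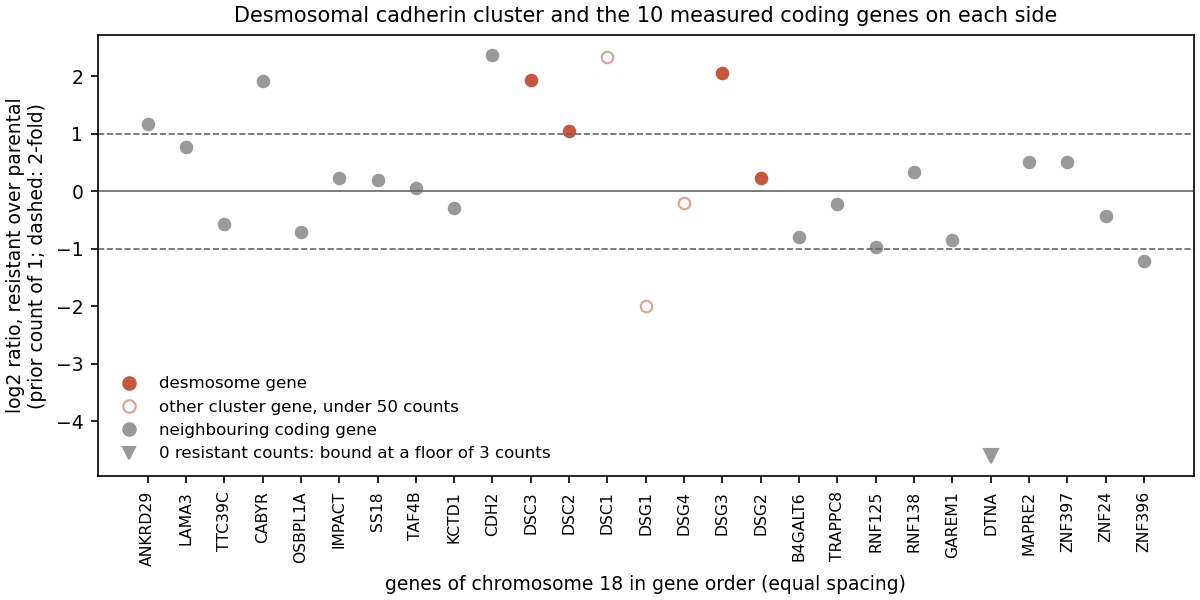
Log2 ratio of resistant over parental for the cadherin cluster of chromosome 18 (red; open circles are cluster genes under 50 counts) and the 10 coding genes with at least 50 counts on each side (grey), in gene order with equal spacing. Above the upper 2-fold line are DSC3, DSC2, DSG3, the neighbours CDH2, CABYR and ANKRD29, and DSC1 with only 1 and 9 counts, while DSG2 and the 10 genes after it are all below that line; the triangle is DTNA, with 0 resistant counts, drawn at its bound of at least 24.5-fold lower.

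The armadillo proteins, which link the cadherin tails to desmoplakin, went the other way in part. JUP encodes plakoglobin, the armadillo protein that desmosomes share with adherens junctions. It had 3122 counts in the parental and 2711 in the resistant library, with FPKM values of 34.2 and 31.0. Its ratio was 0.874 [0.830 to 0.921], slightly lower in the resistant library, and its log2 ratio of -0.19 ran from -0.35 to -0.12 over the other settings. PKP3, the plakophilin of most epithelia, had 361 and 259 counts and FPKM values of 6.89 and 5.16. It was 1.38-fold lower [1.18 to 1.63], with a log2 ratio of -0.47. PKP2, best known for its part in the junctions of heart muscle and present in simple epithelia, had 241 and 363 counts and FPKM values of 4.80 and 7.54. PKP2 was 1.52-fold higher [1.28 to 1.79], with a log2 ratio of 0.60 above that of 83.8% of genes. PKP1, the plakophilin of the upper layers of stratified epithelia, had 0 counts and 3, at or under the floor in both libraries, so no fold is given.

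PKP2 and PKP3 thus traded weight within the plakophilin class. By count, PKP2 was 40.0% of the plakophilins in the parental library [36.1 to 44.1] and 58.1% in the resistant library [54.1 to 62.0]. By FPKM the share of PKP2 was 41.0% and 59.1%. Divided by the longest transcripts it was 30.4% and 47.6%, a difference in the same direction that leaves PKP3 ahead, at 52.1%. The sum of the plakophilins barely differed, at 602 and 625 counts, a ratio of 1.05 [0.933 to 1.17]. All 4 armadillo genes together had 3724 and 3336 counts, 1.11-fold lower in the resistant library with a ratio of 0.902 [0.860 to 0.945]. Since the values of all 4 rest on the short transcript lengths described above, they may not stand for whole genes.

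DSP, the plakin that carries the load between the plaque and keratin, was the most counted of the 10 genes. It had 15723 counts in the parental and 20040 in the resistant library, with FPKM values of 18.1 and 24.0. Its level was 1.28-fold higher [1.26 to 1.31], a log2 ratio of 0.36 that exceeded 68.7% of genes. DSP has a long transcript, and with the trend of ratios along gene length removed its log2 ratio was 0.90. PERP, a membrane protein of desmosomes and a known target of p53 and p63, had 10918 and 14379 counts and FPKM values of 61.2 and 84.1. PERP was 1.33-fold higher [1.29 to 1.36], with a log2 ratio of 0.41 above that of 72.2% of genes. Both genes thus differed by about as much as the desmosome total, of which they held 72.0% of the counts in the parental and 69.9% in the resistant library.

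Levels of the genes against each other can only be compared per length. On the deposited FPKM scale the order in the parental library was PERP, JUP, DSG2, DSP, DSC2, PKP3, PKP2, DSC3, DSG3 and PKP1. In the resistant library DSG2 passed JUP and PKP2 passed PKP3, and the other places were unchanged. Per kilobase of the longest transcript, PERP led with 2545 counts in the parental and 3352 in the resistant library, and DSP came next with 1605 and 2046. On that scale DSC2 stood behind DSG2 in the parental library, at 303 counts per kilobase against 462. In the resistant library DSC2 stood ahead, at 619 against 540. That change of order depends on dividing by the 12325 bases of the longest DSC2 transcript, whereas its FPKM length was 5124 bases. By deposited FPKM, DSC2 stood behind DSG2 in both libraries. DSC3, DSG3 and PKP1 took the last places on both scales and in both libraries. There, DSC3 had 16.2 and 61.6 counts per kilobase and DSG3 11.9 and 49.8.

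Outside chromosome 18 the desmosome genes lie apart, and the 10 measured coding genes on each side give their surroundings. DSP on chromosome 6, at 0.36, had neighbours with a median log2 ratio of 0.33, and PERP, also on chromosome 6, at 0.41, had neighbours with a median of 0.33. JUP on chromosome 17, at -0.19, stood below its neighbours' median of 0.23. PKP2 on chromosome 12, at 0.60, stood above a median of 0.21, and PKP3 on chromosome 11, at -0.47, was near a median of -0.29 over 18 genes. DSP and PERP therefore differed little from the genes around them.

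The partners of the desmosome were read from gene lists, each given by its genes with at least 50 counts. Among other desmosomal and cornified plaque proteins, 5 of 9 reached that minimum, none was 2-fold higher and 1 was lower, with a median log2 ratio of -0.38. That gene was EVPL, which encodes the cornified envelope plakin envoplakin, at 5324 counts in the parental and 2564 in the resistant library, a ratio of 0.485 [0.462 to 0.508]. EVPL was inside 2-fold on the deposited FPKM scale (-0.99), under upper quartile scaling (-0.97) and with the length trend removed (-0.62). All 5 genes of this list had log2 ratios below 0, from -1.04 to -0.11, as did 7376 of all 15102 genes. For 3 of the 5, including the gene at the median, the FPKM length was that of a transcript below 50% of the longest. The ratios of these 3 may therefore describe 1 transcript of each gene.

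Keratins, the filaments that desmosomes anchor, had 9 of 13 genes at the minimum, 1 higher and 1 lower, with a median of 0.54. For 6 of these 9, KRT7, KRT8, KRT15, KRT17, KRT18 and KRT19, the FPKM length was that of a short transcript. The median is the value of KRT7, which was divided by 586 bases although its longest transcript has 1754. The ratios of these 6 may therefore describe 1 transcript of each gene. KRT20, a keratin of intestinal epithelium, had 140 counts in the parental and 2401 in the resistant library, 17.3-fold higher [14.6 to 20.6]. KRT23, a keratin reported in several carcinomas, had 16931 and 7465 counts, a ratio of 0.444 [0.432 to 0.456]. The other 7 keratins lay within 2-fold.

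Adherens junction genes had 14 of 17 at the minimum, 4 higher and 1 lower, with a median of 0.35 that became -0.10 when at least 200 counts were required. CDH17, the liver and intestine cadherin, had 85 counts in the parental and 6138 in the resistant library, 72.7-fold higher [58.7 to 91.1]. After CDH17 and CDH2 came NECTIN1, an adhesion molecule that starts cell contacts, with 31 and 97 counts, and ARVCF, a catenin of the p120 family, with 21 and 65. These were 3.15-fold [2.08 to 4.88] and 3.12-fold [1.88 to 5.37] higher. CDH17 thus had a higher ratio than any of the 4 desmosomal cadherins. The ratio of CDH2 was also higher, but its interval [4.71 to 5.66] overlapped that of DSG3 [3.20 to 5.57]. CTNNA1, the alpha-catenin of epithelia, had only 25 and 12 counts, and its FPKM length was that of a 548-base transcript.

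Hemidesmosomes, which fix keratin to the basement membrane, had 9 of 9 genes at the minimum, 1 higher and 1 lower, with a median of 0.27. ITGB4, the integrin chain of the hemidesmosome, was the lower one, with 2802 parental and 1307 resistant counts, a ratio of 0.470 [0.439 to 0.502] whose log2 of -1.09 was -0.89 with the length trend removed. Tight junction genes other than claudins had 14 of 15 at the minimum, with none higher, 1 lower and a median of -0.18. The lower one was CGNL1, which encodes paracingulin, at 166 and 67 counts, a ratio of 0.406 [0.301 to 0.543] whose log2 of -1.29 was -0.85 with that trend removed.

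Gap junction connexins, with 7 of 8 at the minimum, had 3 genes higher, none lower and the highest median of these lists, 0.94. GJA1, the connexin of many tissues including heart, had 18 counts in the parental and 284 in the resistant library, 15.9-fold higher [9.87 to 27.2]. GJB5, a connexin of skin, had 83 and 176 counts, a ratio of 2.13 [1.64 to 2.81]. GJB5 was near the 2-fold mark, with a log2 ratio of 0.94 when the length trend was removed. None of the 7 had an FPKM length that matched a transcript of less than 50% of the longest one's length. Such a length was found for 8 of the 9 hemidesmosome, 9 of the 14 adherens junction and 8 of the 14 tight junction genes.

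**Figure D4:**
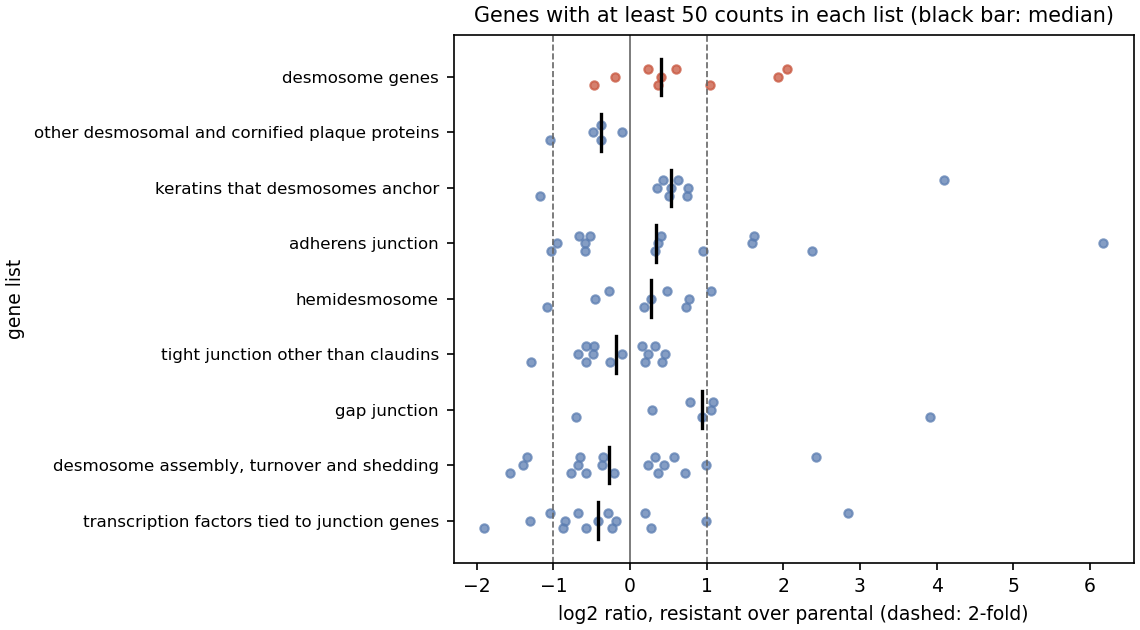
Log2 ratio of resistant over parental for each gene with at least 50 counts (points, spread vertically for visibility only) in the desmosome set (red) and the related lists (blue), with the median as a black bar and 2-fold as dashed lines. The desmosome median is 0.41, connexins have the highest median at 0.94, and transcription factors the lowest at -0.42.

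Genes for the assembly, turnover and shedding of desmosomes had 18 of 20 at the minimum, 1 higher and 3 lower, with a median of -0.28. CAV1, the main coat protein of caveolae, had 858 counts in the parental and 4590 in the resistant library, 5.39-fold higher [5.01 to 5.80]. PRKCA, the kinase C alpha that loosens desmosomes when active, had 3410 and 1138 counts, a ratio of 0.336 [0.314 to 0.359]. SPINK5, an inhibitor of the kallikreins that cut desmosomal cadherins in skin, had 12787 and 4985 counts, a ratio of 0.392 [0.380 to 0.406]. KLK6, a kallikrein protease, had 201 and 75, a ratio of 0.376 [0.284 to 0.492]. A kallikrein and an inhibitor of kallikreins were thus both lower, and KLK6 was the only listed kallikrein with at least 50 counts.

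Transcription factors tied to junction genes had 15 of 20 at the minimum, 1 higher and 3 lower, and the lowest median, -0.42. CDX2, the intestinal homeobox factor, had 145 counts in the parental and 1042 in the resistant library, 7.23-fold higher [6.08 to 8.67]. GRHL1, a grainyhead factor active in desmosomal cadherin genes of skin, had 1988 and 528 counts, a ratio of 0.267 [0.242 to 0.294]. TP63, the master factor of stratified epithelium and an activator of PERP, had 61 and 24 counts, a ratio of 0.396 [0.236 to 0.645]. ELF3, an epithelial ETS factor, had 8640 and 4168, a ratio of 0.486 [0.468 to 0.504]. The log2 ratio of TP63 was -0.92 with the length trend removed, and that of ELF3 was -0.97 under upper quartile scaling and -0.99 from deposited FPKM. GRHL1 and TP63 were lower in the library in which DSG3, DSC3 and PERP were higher. Whether these factors bear on those genes was not tested.

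Markers of other cells gave the following levels beside these results. Simple epithelial markers, 5 of 5 at the minimum, summed to 3243 scaled CPM (counts relative to library size) in the parental and 4907 in the resistant library, and all 5 had log2 ratios above 0 (0.32 to 0.85). Stratified epithelial markers had 2 of 9 at the minimum (KRT10 and TP63) and summed to 23.5 and 20.8 CPM, with no row for KRT5, KRT1, SPRR1B and SBSN. KRT10 alone made up 20.6 and 19.4 CPM of these sums, while KRT14 had 36 and 22 counts, KRT6A 1 and 0, and IVL 0 and 2. Fibroblast markers had 2 of 6 at the minimum and summed to 3.92 and 17.1 CPM, of which LUM alone made up 1.01 and 15.2. COL1A1 had 97 and 38 counts and LUM 35 and 523, and COL1A2 had no row. Leukocyte markers had 1 of 5 (CD68, 351 and 582 counts) and summed to 11.3 and 17.8. None of the 4 endothelial or 5 cardiac markers, of which 2 and 3 have no row, exceeded 3 counts. The part of the epithelial, fibroblast and leukocyte markers in the desmosome values was not tested.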

How the data were processed

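The deposited table holds whole-number counts and FPKM values for 1 parental and 1 resistant library, per the file headers. The counts carry no normalization. The FPKM values were made by the authors with a denominator 2.57 (parental) and 2.47 (resistant) times the table's count totals. Per the submitters' processing notes, the tools and builds include RSEM 1.2.3 and hg19, without a role. The sources used here name no annotation or strand setting. Total RNA (Trizol) went into strand-specific ScriptSeq libraries, per the labels' protocols.

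Identifiers were named from a gene name table (29536 matched) and GENCODE release 29 (29719 matched), and 2126 had no name. GENCODE is on another build, so it served for names, types, lengths and gene order alone. FPKM lengths were count over FPKM, set on genes with a single transcript (740 of 954 within 1% in the parental library, 714 of 929 in the resistant library).

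Counts were scaled by TMM in edgeR 4.0.16 (R 4.3.3), and intervals are exact conditional or Clopper-Pearson. A gene was called at 2-fold with at least 50 counts in the higher library. Log2 ratios used a prior count of 1 and the floor was 3 counts per library. The calculations were tested on simulated data. Scripts used scipy 1.17.1, pandas 2.3.3, numpy 2.4.6 and matplotlib 3.10.9 in Python 3.11.15, and DESeq2 1.42.0 gave median of ratios factors over genes with at least 50 counts.

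The members and lists were chosen with earlier results of these data known. All 10 members are named and, from each list, up to 4 genes past 2-fold with the largest differences. The markers, CTNNA1, DSC1, DSG1, DSG4, the antisense genes and the cluster's neighbours fall outside that rule. DTNA and CTNNA1 were picked after their values were seen. Some genes that the rule names are not reported here.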

Additional observations from a re-analysis of the deposited data

How the results depend on the processing

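The count of desmosome genes at least 2-fold higher was 3 of 9, and 2 under median of ratios scaling (DSC2 at 0.98). It was 4 of 10 with no count minimum (PKP1 added, at 0 and 3 counts), 4 of 9 at 1.5-fold and 1 at 4-fold (DSG3). Among all genes, 906 of 15102 were at least 2-fold higher, and 809 under median of ratios scaling. That number was 5565 of 31845 with no minimum, 2541 of 15102 at 1.5-fold and 252 of 15102 at 4-fold. No setting gave a gene at least 2-fold lower. The median log2 ratio of 0.41 was 0.34 under median of ratios scaling, 0.48 under upper quartile scaling, 0.46 from deposited FPKM values, 0.50 with the length trend removed, 0.50 with no minimum or with all 10 members, and 0.66 as a mean. Without the members whose FPKM length is that of a transcript below 50% of the longest, an alternative added after seeing the data, it was 1.04 over 5 genes. Of 72 single-gene values for desmosome genes, 59 stayed within counting error, 13 moved, 0 changed sign and 1 crossed 2-fold. For the 168 values of other named genes, 24 moved, 0 changed sign and 11 crossed 2-fold, and of 312 list values 50 moved and 1 reversed: the adherens junction median was -0.10 with a minimum of 200 counts. Scalings shifted the median of all genes to between 0.00 and 0.13. Depth limits PKP1 and DSG1 to a statement of counts and leaves DSC1 a wide interval. No paired analysis was possible because each group has 1 library.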
